A study of Homo sapiens with 18 samples.

Results

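A253 cells made to overexpress EHF were compared with A253 control cells by RNA sequencing, using the 6 libraries that carry these labels out of 18 samples in the series. The overexpressing group had 3 libraries from cells grown with doxycycline, the drug used to switch the introduced EHF on, and the control group had 3 libraries from cells grown in regular medium without it. All 23710 genes of the deposited table were considered and 14503 were counted deeply enough to be tested. A253 is an established line from a carcinoma of the human submandibular salivary gland, which the labels class as HNSCC, head and neck squamous cell carcinoma. The controls received no doxycycline, so an effect of the drug and an effect of EHF cannot be told apart in any value below. The labels do not say whether libraries of a group came from separate cultures, so p-values measure the spread between these libraries, which may be technical.

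EHF is a transcription factor of the ETS family, whose members share a DNA-binding domain that recognises a GGAA core. It belongs to the epithelium-specific branch of the family, with ELF3 and ELF5, and is normally made in glandular and stratified epithelia, including salivary ducts, where these factors act on genes of differentiation, barrier and innate defence. In carcinomas its level and its effect vary with the tissue, and the comparison asks which genes follow it when it is raised in a salivary line.

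Library totals were 13749668 to 17823293 counts in the overexpressing group and 11090976 to 17715344 in the control group. Pearson's r between log2 CPM of libraries was 0.992 to 0.994 within groups and 0.985 to 0.989 between them. The first principal component held 46.6% of the variance and separated the groups. The second held 21.5% and set overexpressing replicate 1 and control replicate 2 apart from the other 4 libraries. POLR2A, a gene chosen after its values were seen, shows that axis, with 102, 36.6 and 32.7 CPM in overexpressing and 33.0, 99.8 and 33.9 CPM in control libraries (CPM, the count scaled to the library's TMM-adjusted total). Leaving both libraries out gave 1212 called genes, against 1156 with all 6. The cells had the keratins of an epithelial line: KRT5 stood at 6116, 6893 and 6199 CPM in overexpressing and 7138, 6904 and 7322 CPM in control libraries. Markers of salivary secretory cells were almost absent, as 14 of 24 listed had no count in any library, among them AQP5, MUC7 and the amylase genes AMY1A, AMY1B and AMY1C. The amylase genes are near-identical copies, whose reads the counting could have missed.

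The introduced gene was high in every library that should carry it. EHF was measured at 765, 711 and 633 CPM in overexpressing libraries, against 84.5, 91.4 and 83.2 CPM in control libraries (log2 change 3.02, SE 0.079, adjusted p = 4.63e-13). Per transcript length it averaged 247 ± 28.4 TPM (a level scaled by transcript length; SD, n = 3) with overexpression, rank 510 of the 14503 genes by level, and 30.9 ± 2.75 TPM in controls, rank 4589. The controls therefore already made EHF, and the comparison is between a higher and a lower level of it.

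Of 14503 genes tested, 1156 (7.97%) passed an adjusted p of 0.05 in edgeR's quasi-likelihood test with Benjamini-Hochberg adjustment, which is the adjusted p given throughout. Of these, 730 (5.03% of those tested) were higher and 426 (2.94%) lower with overexpression. The median of all genes tested was -0.0034 on the log2 scale, which TMM scaling sets near 0, so a change common to all genes would not be seen. Most changes were small. The median size among called genes was 0.46 on the log2 scale, a 1.38-fold change, and 761 of the 1156 lay under 1.5-fold. Rises were larger than falls: 130 genes (0.896% of those tested) rose at least 2-fold and 27 (0.186%) fell at least 2-fold. The CPM of the groups did not overlap for 1154 of the called genes, against 24.3% of all genes tested. Without control replicate 1 the count of called genes was 658. On the deposited TPM without a filter on low values, limma called 490. Of the genes named as called in the following paragraphs on A253, it did not call THBD, PMEPA1, DLC1, TIAM2, TIMP2, FBN1, ABCG2, TGM1, CCND2, GRN, ABCA12, TJP3, CD274, HAS2, MYC, MAF, BMF, GOLGA7B, PKP1, MITF, ETV7, ALDH3B2 and KRT14. Limma called 13 rises among the interferon response genes described below, against 30 by edgeR. Genes named as having risen or fallen in the same paragraphs passed the threshold with all 6 libraries and with each library left out in turn, unless a value is given to the contrary.

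The largest rises among well counted genes included an ion channel, secreted proteases and their inhibitors, and regulators of transcription. KCNJ2 encodes the inward-rectifier potassium channel Kir2.1. It was measured at 14.7, 15.1 and 17.1 CPM in overexpressing libraries and 2.59, 2.36 and 1.98 CPM in control libraries, a 6.63-fold rise (log2 change 2.73, SE 0.14, adjusted p = 1.14e-09). PLAT, the tissue-type plasminogen activator, stood at 116, 137 and 134 CPM with overexpression and 23.4, 19.9 and 20.1 CPM without, 6.11-fold higher (log2 change 2.61, SE 0.086, adjusted p = 5.91e-12). The groups were far apart for both genes. Genes whose groups overlapped were not eligible for the largest rises. ADAM21, of the ADAM family of membrane proteases, had 6.55, 7.29 and 8.74 CPM in overexpressing and 1.21, 1.18 and 1.26 CPM in control libraries (6.17-fold, adjusted p = 1.04e-07). LRG1, a secreted leucine-rich glycoprotein, had 10.2, 10.1 and 10.4 CPM in overexpressing and 2.01, 1.74 and 2.44 CPM in control libraries (5.03-fold, adjusted p = 3.26e-08).

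Transcriptional regulators were among the rises. HDAC9, a class IIa histone deacetylase, was 4.28-fold higher, at 23.6, 23.7 and 24.5 CPM in overexpressing and 5.23, 5.74 and 5.86 CPM in control libraries (log2 change 2.1, SE 0.1, adjusted p = 5.19e-10). LMO2, a LIM-domain cofactor best known from blood cell precursors, had 13.3, 13.3 and 13.4 CPM with overexpression and 3.45, 2.59 and 3.7 CPM in controls (4.17-fold, adjusted p = 4.16e-08). The 3 overexpressing libraries were nearly equal for these genes. B4GALNT2, the glycosyltransferase that makes the Sd(a) antigen, had 8.69, 8.29 and 9.04 CPM in overexpressing and 2.59, 1.97 and 1.71 CPM in control libraries (4.05-fold, adjusted p = 3.9e-07). CEACAM1, an adhesion molecule of the immunoglobulin family, had 14.8, 9.91 and 8.89 CPM with overexpression and 2.47, 3.15 and 2.53 CPM in controls, with replicate 1 the highest of its group (4.07-fold, adjusted p = 0.000138).

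**Figure D1:**
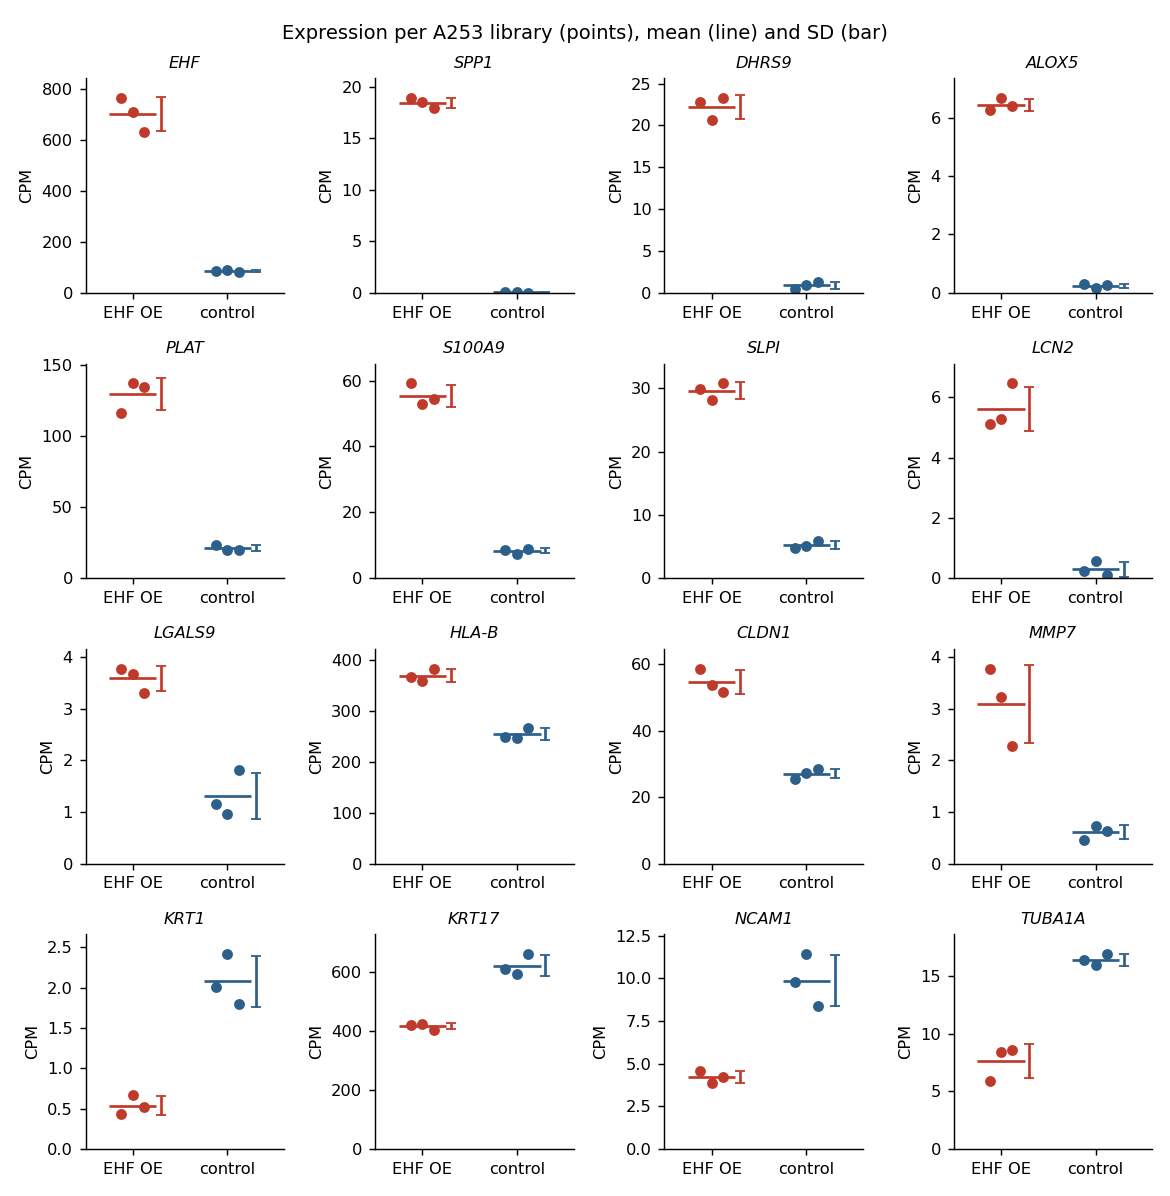
CPM (scaled counts, linear axis from 0) of 16 genes in each A253 library, with the mean as a line and the SD as a bar; overexpressing libraries (EHF OE) are on the left and control libraries on the right of each panel. The groups separate in every panel, by a wide margin for SPP1, DHRS9 and ALOX5 and by a narrow one for HLA-B and KRT17.

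A further set of genes was scarcely counted in controls, and for these the counts are given because a fold against so few reads is imprecise. By the rule of at most 3 reads over the control libraries and at least 30 over the overexpressing ones, 8 called genes qualified, SPP1 among them. SPP1 encodes osteopontin, a secreted phosphoprotein of bone matrix and of many carcinomas. It had 266, 333 and 244 reads in overexpressing libraries, against 2, 1 and 0 in control libraries, a ratio of library-scaled counts of 285 with an exact 95% interval of 97.2 to 1384 that covers counting error only. LAPTM5, a lysosomal membrane protein typical of blood cells, had 61, 108 and 76 reads in overexpressing libraries, against 2, 0 and 0 in control libraries. Its ratio was 124, with an interval of 34.0 to 1031. CSF2RB, the shared signalling chain of the receptors for GM-CSF, interleukin-3 and interleukin-5, had 25, 43 and 28 reads with overexpression and none in any control, at least 32.4-fold higher when the controls are set to a floor of 3 reads over the group. VNN1, a membrane pantetheinase, had 31, 30 and 36 reads with overexpression and none in controls, at least 32.8-fold higher on the same floor. LYPD2, of the Ly6 family of surface proteins, had 24, 37 and 25 reads with overexpression and 0, 1 and 0 in controls (ratio 87.2, interval 15.2 to 3484). The remaining members were VGLL1, a cofactor of TEAD factors (ratio 16.6, interval 5.34 to 83.1), HSD17B2, which oxidises estradiol (ratio 19.8, interval 5.12 to 169), and RERG, a RAS-related GTPase (ratio 13.5, interval 4.31 to 68.3).

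Because LAPTM5 and CSF2RB are genes of blood cells, the leukocyte markers were examined as a list. Of 18 markers, 4 were counted deeply enough to be tested and 2 of these rose, LAPTM5 and CD14. CD14, the lipopolysaccharide co-receptor, had 6.69, 7.35 and 8.23 CPM in overexpressing and 3.05, 2.76 and 2.53 CPM in control libraries (2.64-fold, adjusted p = 1.25e-05). The summed level of all 18 was 16.3 to 19.8 CPM with overexpression and 7.76 to 8.34 CPM in controls. Most of that difference was LAPTM5 and CD14 themselves, as the other 16 summed to 5.0 to 6.46 CPM with overexpression and 5.18 to 5.23 CPM in controls. CD3D, CD3E, CD2, MS4A1, FCGR3A and TYROBP had no read in any of the 6 libraries. PTPRC, the pan-leukocyte marker CD45, had 0, 2 and 4 reads with overexpression and 2, 4 and 1 in controls. In bulk RNA such as this, more cells of a type and more RNA per cell cannot be told apart.

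Promoter sequence is shown for SPP1, KIAA1199, S100A9 and KCNJ2, the largest rises with 1 start site in the RefSeq table, and for LAPTM5, since they rose together while a factor with a known DNA core was raised. Each line gives the 250 bases before the start site in the GRCh38.p14 annotation of RefSeq, 5′ to 3′ on the strand of the gene, with the ETS core in capitals (GGAA, or TTCC where it lies on the other strand). KIAA1199, an earlier symbol of CEMIP, encodes a hyaluronan-binding protein, and S100A9 a subunit of calprotectin.
SPP1, chr4:87975464-87975713, plus strand: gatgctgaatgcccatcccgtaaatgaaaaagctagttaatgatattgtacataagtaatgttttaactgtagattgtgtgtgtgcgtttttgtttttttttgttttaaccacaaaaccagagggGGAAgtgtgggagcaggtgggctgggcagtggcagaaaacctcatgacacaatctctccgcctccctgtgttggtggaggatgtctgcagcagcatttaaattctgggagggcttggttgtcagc
KIAA1199, chr15:80779120-80779369, plus strand: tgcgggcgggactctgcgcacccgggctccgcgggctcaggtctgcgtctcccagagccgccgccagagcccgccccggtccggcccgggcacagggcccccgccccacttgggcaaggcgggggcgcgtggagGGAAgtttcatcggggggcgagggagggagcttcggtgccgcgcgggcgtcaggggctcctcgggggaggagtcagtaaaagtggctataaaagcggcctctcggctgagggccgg
S100A9, chr1:153357604-153357853, plus strand: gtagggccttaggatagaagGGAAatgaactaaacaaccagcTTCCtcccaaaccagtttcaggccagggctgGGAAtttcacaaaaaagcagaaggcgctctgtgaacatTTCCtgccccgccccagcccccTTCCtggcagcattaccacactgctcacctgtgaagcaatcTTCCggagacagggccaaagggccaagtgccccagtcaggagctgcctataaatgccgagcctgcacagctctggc
KCNJ2, chr17:70169282-70169531, plus strand: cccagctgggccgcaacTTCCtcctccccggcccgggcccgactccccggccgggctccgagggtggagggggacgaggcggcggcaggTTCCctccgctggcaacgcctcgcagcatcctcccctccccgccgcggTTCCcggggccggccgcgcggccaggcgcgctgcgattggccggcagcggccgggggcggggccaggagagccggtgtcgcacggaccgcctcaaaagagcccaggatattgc
LAPTM5, chr1:30757775-30758024, minus strand: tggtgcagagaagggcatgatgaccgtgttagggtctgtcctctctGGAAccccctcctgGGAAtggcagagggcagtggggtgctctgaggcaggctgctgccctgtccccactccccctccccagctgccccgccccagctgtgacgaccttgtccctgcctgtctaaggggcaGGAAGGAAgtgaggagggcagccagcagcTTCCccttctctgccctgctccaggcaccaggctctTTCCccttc

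The core occurred 1 time in SPP1 and KIAA1199, 3 times in KCNJ2 and 6 times in S100A9 and in LAPTM5, where 2 copies lie side by side. The core is so short that most promoters hold it. In windows of 300 bases around the start site (250 before to 50 after, both strands), GGAA was present in 93.3% of the 60 genes with a single window that rose at least 2-fold and in 95.2% of all 7856 tested genes with a single window. The longer form AGGAAG was present in 46.7% of those that rose at least 2-fold and 32.2% of all, and CGGAAG, the form common in promoters of housekeeping genes, in 8.33% and 33.7%. Among the 367 genes with a single window of all that rose, AGGAAG was present in 36.2% and CGGAAG in 17.7%, and among the 227 that fell, AGGAAG in 29.1% and CGGAAG in 17.6%. The median GC content of these windows was 58.67% among genes that rose at least 2-fold and 65.67% among all, so the windows differ in base composition too. A match is a description of the letters, not evidence of a bound site.

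Among well counted genes the largest falls were smaller than the largest rises. TRPC6, a calcium-permeable cation channel, had 16.2, 13.9 and 12.4 CPM in overexpressing and 23.1, 26.9 and 29.9 CPM in control libraries, 1.87-fold lower with overexpression (log2 change -0.91, SE 0.11, adjusted p = 9.15e-05). TMPRSS13, a membrane-anchored serine protease of stratified epithelium, had 3.06, 2.67 and 3.23 CPM with overexpression and 5.41, 5.96 and 5.32 CPM in controls (1.88-fold lower, adjusted p = 0.00104). HCAR2, the receptor for niacin and β-hydroxybutyrate, had 3.85, 3.95 and 3.67 CPM with overexpression and 6.9, 7.82 and 6.22 CPM in controls (1.84-fold lower, adjusted p = 0.000706). The rule that chose the largest falls required that the groups not overlap, so their separation here is not a separate result. LYPD3, a glycolipid-anchored Ly6 protein of squamous epithelium, DLC1, a GTPase-activating protein, TIAM2, a RAC exchange factor, and MFAP5, of the extracellular microfibrils, fell by log2 changes of -0.84, -0.84, -0.87 and -0.80. GOLGA7B, a partner of a palmitoyltransferase, and LGALS7B, an epithelial galectin with a near-identical copy that could share its reads, fell by 0.84 and 0.80 on the log2 scale. NCAM1, ALPP, TUBA1A, AKR1C1, BMF and ABCA12 complete the 15 largest falls among genes with a mean log2 CPM of at least 2, between -1.25 and -0.86. Some scarcer called genes fell further, CXCL14 and KRT1 among them, and are given below.

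Programmes were described with 69 lists of genes, 6 of them markers of cell types, holding 1663 tested genes, of which 204 rose and 104 fell. The shares per list are shown in the plot of gene lists, beside those among all genes tested. Without control replicate 1 the lists held 200 called genes, against 308 with all libraries.

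**Figure D2:**
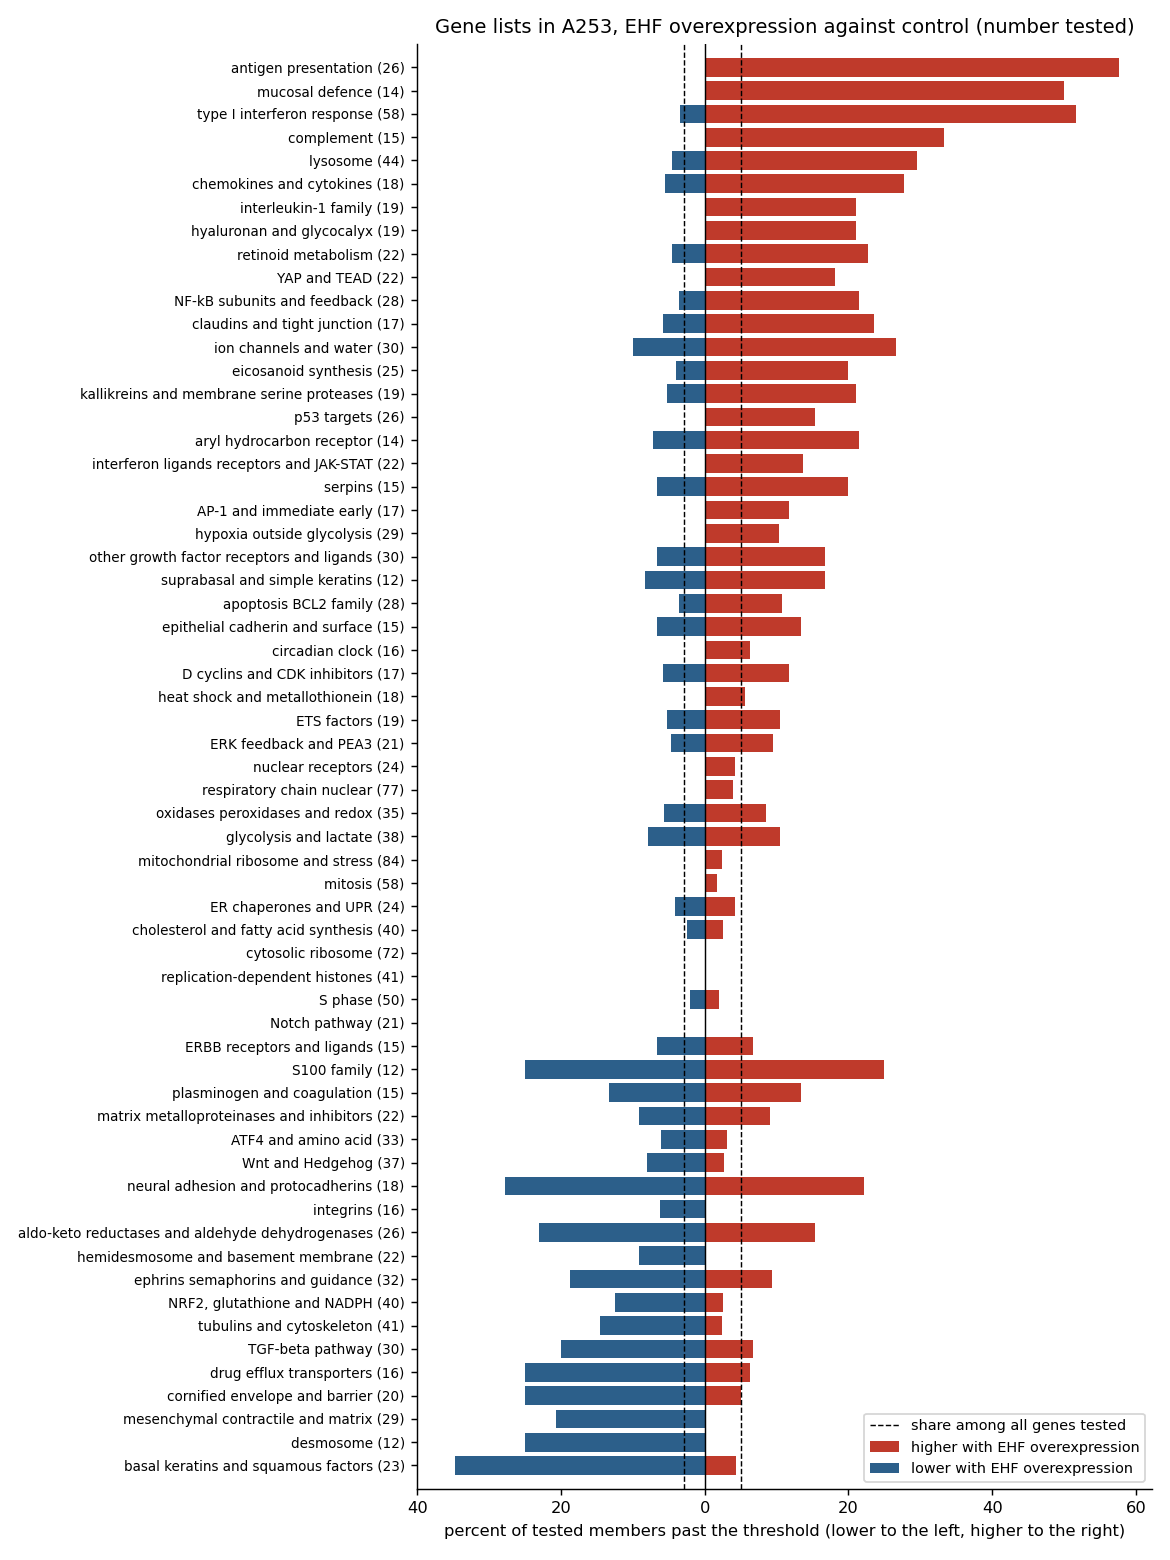
Percent of the tested members of each gene list (number tested in brackets) that passed the threshold, drawn to the right in red where higher and to the left in blue where lower with EHF overexpression; dashed lines mark the shares among all genes tested, 5.03% higher and 2.94% lower. Antigen presentation, mucosal defence and interferon response reach furthest to the right, and basal keratins and squamous factors furthest to the left.

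Many genes of the interferon response and of antigen presentation rose. Interferons act through JAK kinases and STAT factors on genes of antiviral defence. Of 58 tested response genes 30 rose, 2 fell and 26 did not pass, with a median log2 change of 0.29 against -0.0034 over all genes. TRIM22, an antiviral ubiquitin ligase, was the largest rise, at 7.62, 8.74 and 8.45 CPM in overexpressing and 2.13, 2.81 and 3.07 CPM in control libraries (3.15-fold, adjusted p = 2.78e-06). LGALS9, the lectin galectin-9, had 3.77, 3.67 and 3.31 CPM with overexpression and 1.15, 0.956 and 1.8 CPM in controls (2.88-fold, adjusted p = 0.000322). MX1, a dynamin-like antiviral GTPase, rose 1.98-fold to 17.3 ± 0.865 CPM, against 8.8 ± 0.724 CPM in controls (SD, n = 3 each). IRF1, a transcription factor of the pathway, rose 1.92-fold, and IFITM1, a membrane protein that blocks viral entry and has close paralogues, rose 2.01-fold to 284, 301 and 337 CPM with overexpression, against 156, 143 and 159 CPM in controls.

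The response genes did not move as a block. ISG15, a ubiquitin-like modifier that is a standard marker of interferon signalling, had 54, 43.1 and 53.7 CPM with overexpression and 59.5, 53 and 59.7 CPM in controls (log2 change -0.19, adjusted p = 0.253). IFIT1 had 29.1, 30.6 and 32.4 CPM with overexpression and 27.9, 27 and 30.2 CPM in controls (adjusted p = 0.488). Neither passed, and HERC5, which attaches ISG15 to proteins, fell to 14.5, 13.9 and 15.1 CPM with overexpression, against 21.1, 21.7 and 21.8 CPM in controls (adjusted p = 0.000383). OASL, of the oligoadenylate synthetase family, fell likewise (log2 change -0.57, adjusted p = 0.0014), while UBE2L6, the conjugating enzyme of ISG15, rose (0.68, adjusted p = 9.86e-06). Of the interferon ligands, receptors and JAK-STAT genes, 3 of 22 tested rose and none fell. IRF9 and STAT2, which carry the interferon signal to DNA, had log2 changes of -0.21 and 0.01 and did not pass.

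Antigen presentation on HLA class I requires peptides cut by the immunoproteasome, trimmed by ERAP enzymes and loaded with the help of tapasin-like proteins. Of 26 tested genes of this path 15 rose and none fell, with a median of 0.30. ERAP2 rose 1.9-fold to 183, 194 and 196 CPM with overexpression, against 99.1, 99.2 and 104 CPM in controls (log2 change 0.92, SE 0.06, adjusted p = 3.4e-08). The immunoproteasome subunits PSMB10, PSMB9 and PSMB8 rose by log2 changes of 0.79, 0.67 and 0.57, and TAPBPL by 0.86. B2M, the invariant chain of class I, rose to 1160.1, 1119 and 1267 CPM with overexpression, against 783, 746 and 863 CPM in controls (1.48-fold, adjusted p = 6.33e-05). HLA-B rose 1.45-fold, whereas HLA-C had 202, 199 and 216 CPM with overexpression and 193, 186 and 214 CPM in controls, where the groups overlapped (adjusted p = 0.728). HLA genes are near-identical in sequence and the counting could have divided reads between them. The ligand CD274 (PD-L1), of low level, had 3.92, 4.56 and 5.66 CPM with overexpression and 2.82, 1.91 and 2.89 CPM in controls (1.88-fold, adjusted p = 0.00771).

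**Figure D3:**
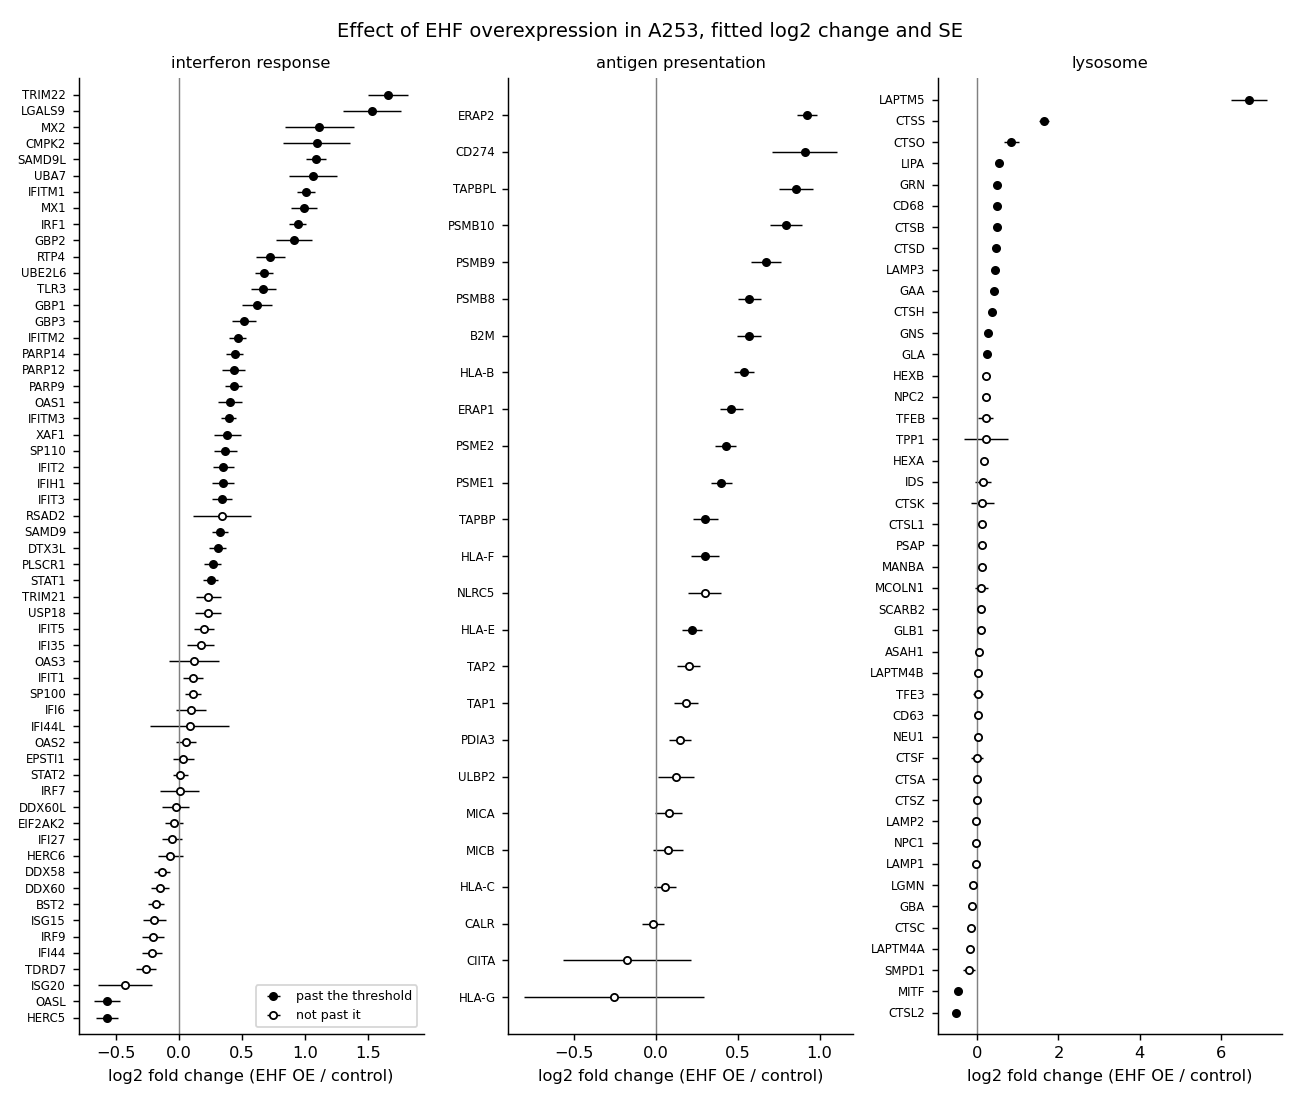
Fitted log2 change (EHF overexpression over control, bars show the SE) of tested genes of the interferon response, antigen presentation and lysosome lists, with 1 gene of antigen presentation not drawn; filled points passed the threshold and open points did not. Filled points lie to the right of 0 except HERC5 and OASL among response genes and CTSL2 and MITF among lysosomal genes.

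Among secreted defence proteins of mucosa, 7 of 14 tested genes rose and none fell (median 0.34), and another 16 listed were too scarce to test. SLPI, an inhibitor of neutrophil elastase made by salivary and airway epithelium, had 29.9, 28.2 and 30.8 CPM in overexpressing and 4.77, 5.12 and 5.95 CPM in control libraries (5.66-fold, log2 change 2.50, SE 0.1, adjusted p = 7.38e-11). CTSS, cathepsin S, rose to 11.6, 13.6 and 12.7 CPM with overexpression, against 3.97, 4.22 and 3.88 CPM in controls (3.14-fold, adjusted p = 1.86e-07). Both genes had tight groups that stood well apart. SAA1, an acute-phase protein, was scarce throughout, at 0.783, 0.668 and 0.955 CPM with overexpression and 0.173, 0.169 and 0 CPM in controls (adjusted p = 0.00674), and has near-identical copies.

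Complement genes followed, with 5 of 15 tested higher and none lower (median 0.23). The membrane regulator CD55, which shields cells from complement, rose 3.03-fold to 86, 95.8 and 112 CPM with overexpression, against 31.7, 31 and 34.4 CPM in controls (log2 change 1.6, SE 0.091, adjusted p = 3.26e-08). C3, the central component of the cascade, rose to 4.13, 3.95 and 3.53 CPM with overexpression, against 1.5, 2.14 and 1.35 CPM in controls (adjusted p = 0.00109). CLU, the chaperone clusterin, rose by 0.73 on the log2 scale.

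In the interleukin-1 family 4 of 19 tested genes rose and none fell. IRAK3, a brake on signalling from these receptors, had 4.34, 3.84 and 4.26 CPM with overexpression and 1.15, 1.35 and 2.25 CPM in controls (2.73-fold, adjusted p = 0.000388). CASP1, the protease that matures interleukin-1β, had 22.1, 23.9 and 24.1 CPM with overexpression and 11.6, 11.1 and 12.6 CPM in controls (1.99-fold, adjusted p = 1.93e-06). Of 18 tested chemokines and cytokines 5 rose and 1 fell, in opposite directions for 2 chemokines of epithelium. CXCL16, a membrane-bound chemokine, was at 21.2, 17.9 and 17.8 CPM in overexpressing and 9.2, 8.66 and 6.76 CPM in control libraries (log2 change 1.18, SE 0.12, adjusted p = 5.38e-06). CXCL14, made by normal squamous epithelium, was at 1.57, 1.28 and 0.955 CPM in overexpressing and 4.43, 5.17 and 5.86 CPM in control libraries (3.99-fold lower, log2 change -2.0, SE 0.21, adjusted p = 8.1e-06). The death ligand TNFSF10 (TRAIL) rose 1.83-fold. The count of chemokines and cytokines that rose was 3 without overexpressing replicate 3 or without control replicate 1. NF-kB subunits and feedback genes gave 6 rises and 1 fall among 28, with 3 rises without overexpressing replicate 3 and 2 without control replicate 1; TNIP1, an inhibitor of the pathway, rose by 0.40.

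Lysosomal genes rose modestly. Lysosomes digest proteins, lipids and glycans with acid hydrolases. Of 44 tested genes 13 rose and 2 fell (median 0.11), and 8 rose without control replicate 1. The summed level of the list was 4894 to 5049 CPM with overexpression and 4425 to 4538 CPM in controls. The proteases CTSB and CTSD rose 1.39-fold and 1.37-fold, CTSB to 559, 555 and 559 CPM with overexpression, against 399.7, 389 and 417 CPM in controls (adjusted p = 6.01e-05). LIPA, the acid lipase that frees cholesterol, and GRN, the precursor of granulins, rose by log2 changes of 0.52 and 0.49, and the glycoprotein CD68 by 0.47. The structural membrane proteins LAMP1 and LAMP2 had log2 changes of -0.04 and -0.02 and did not pass. CTSL2, a cathepsin of squamous epithelium, fell to 105, 114 and 121 CPM with overexpression, against 168, 155 and 169 CPM in controls (adjusted p = 6.68e-05).

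Enzymes of lipid mediators showed some of the largest folds, at low levels. ALOX5 is 5-lipoxygenase, which starts the synthesis of leukotrienes from arachidonic acid. It had 6.27, 6.68 and 6.39 CPM in overexpressing libraries and 0.288, 0.169 and 0.271 CPM in control libraries (log2 change 4.72, SE 0.25, adjusted p = 2.24e-09). ALOX15, a lipoxygenase of airway epithelium, had 2.35, 2.51 and 2.06 CPM with overexpression and 0.403, 0.450 and 0.271 CPM in controls (5.87-fold, adjusted p = 2.38e-05), and PLA2G7, which degrades platelet-activating factor, had 1.35, 2.06 and 1.91 CPM with overexpression and 0.633, 0.731 and 0.451 CPM in controls (adjusted p = 0.0037). Each of these genes was near the limit of detection in controls. Over the whole list 5 of 25 tested genes rose and 1 fell, with a median of 0.0039. On the prostaglandin side PTGES, which makes prostaglandin E2, fell to 50.6, 48.4 and 52.8 CPM with overexpression, against 68.8, 62.3 and 71.3 CPM in controls (adjusted p = 0.00127), and HPGD, which inactivates it, rose to 38.2, 33.8 and 37.7 CPM with overexpression, against 26.4, 23.2 and 28.4 CPM in controls (adjusted p = 0.00132). PTGS2, the inducible cyclooxygenase, did not pass (log2 change -0.14, adjusted p = 0.619).

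Retinoid metabolism gave 5 rises and 1 fall among 22 tested genes (median 0.11). Retinol is oxidised to retinal and then to retinoic acid, which binds nuclear receptors. DHRS9, an enzyme of the first step, rose most (log2 change 4.70). ALDH1A3, of the second step, rose to 369.9, 399 and 378 CPM with overexpression, against 246, 261 and 269.7 CPM in controls (adjusted p = 1.42e-05). RARRES3, an acyltransferase named for its response to retinoids, rose to 58.1, 53.4 and 59.95 CPM with overexpression, against 26.9, 29.2 and 27.6 CPM in controls (2.05-fold, adjusted p = 1.15e-07). RDH16, another retinol dehydrogenase, fell to 0.997, 0.724 and 1.1 CPM with overexpression, against 2.01, 2.14 and 2.53 CPM in controls (adjusted p = 0.00464). Enzymes of the same kind therefore moved in both directions.

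Proteases at the cell surface and in the matrix changed singly more than as families. Among 19 tested kallikreins and membrane serine proteases 4 rose and 1 fell. TMPRSS2, a membrane protease of secretory epithelium, had 1.57, 2.17 and 1.91 CPM in overexpressing and 0.403, 0.450 and 0.180 CPM in control libraries (5.1-fold, adjusted p = 0.000212). TMPRSS11E rose 2.33-fold, and ST14, matriptase, rose to 76.8, 74.6 and 75.7 CPM with overexpression, against 50.1, 50.9 and 50.5 CPM in controls (1.5-fold, adjusted p = 1.25e-05). TMPRSS13, described above, was the member that fell. Of 22 tested matrix metalloproteinases and inhibitors 2 rose and 2 fell. MMP13, collagenase-3, stood at 239.6, 254 and 286 CPM with overexpression and 64.6, 61.9 and 64.1 CPM in controls (4.09-fold, log2 change 2.03, SE 0.072, adjusted p = 1.11e-11), and MMP7, matrilysin, at 3.77, 3.23 and 2.28 CPM with overexpression and 0.460, 0.731 and 0.631 CPM in controls (5.08-fold, adjusted p = 4.06e-05). The groups were separate for both, which the rule for the largest rises required of MMP13. The inhibitor TIMP2 fell to 12.7, 8.63 and 9.4 CPM with overexpression, against 14.4, 17.6 and 16.8 CPM in controls (adjusted p = 0.00757). In the plasminogen system PLAT and THBD, the receptor thrombomodulin, rose (2.61 and 0.93).

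Some genes of the surface and its glycans changed alongside. Of 19 tested genes of hyaluronan and the glycocalyx 4 rose and none fell, but the median was -0.13 and only 8 of the 19 lay above 0. The summed level of that list overlapped between the groups, at 2412 to 3048 CPM with overexpression and 2509 to 3134 CPM in controls. Those that rose included KIAA1199 (2.79) and HAS2, a hyaluronan synthase, at 25.8, 30.1 and 29.1 CPM with overexpression and 20.8, 18.5 and 20.4 CPM in controls (adjusted p = 0.00111). Of 23 mucin and trefoil genes in the table, 8 were tested, of which 3 rose and 1 fell. MUC20, a membrane mucin, rose to 4.49, 5.73 and 4.78 CPM with overexpression, against 1.04, 1.12 and 1.89 CPM in controls (3.9-fold, adjusted p = 1.69e-05), and AGR2, which folds mucins in the endoplasmic reticulum, fell to 10.8, 8.41 and 11.1 CPM with overexpression, against 17.5, 15.9 and 17.8 CPM in controls (1.69-fold lower, adjusted p = 0.000354). In the S100 family 3 of 12 rose and 3 fell. S100A9 rose most (2.74), S100A6 rose by 0.37, and S100A14 fell by 0.46 on the log2 scale.

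Keratins of the basal and stress type fell. Keratins are the intermediate filaments of epithelial cells, and KRT5, KRT14, KRT6, KRT16 and KRT17 mark basal or activated squamous cells. Of 23 tested basal keratins and squamous transcription factors 8 fell and 1 rose (median -0.18), and 5 fell without overexpressing replicate 3. KRT17 had 420.0, 424 and 405 CPM in overexpressing and 610.3, 593 and 661 CPM in control libraries (1.49-fold lower, log2 change -0.58, SE 0.063, adjusted p = 1.32e-05). KRT16 had 17.3, 14.8 and 14.2 CPM with overexpression and 22.5, 23.6 and 27.1 CPM in controls (1.58-fold lower, adjusted p = 0.000419). KRT17, KRT16 and the KRT6 genes have near-identical copies, so reads could have been assigned to a relative. KRT6B was scarce, at 0.712, 1 and 0.808 CPM with overexpression and 1.9, 1.97 and 2.35 CPM in controls (adjusted p = 0.00483). KRT5 itself did not pass (log2 change -0.15, adjusted p = 0.252), and KRT14, at 2590.5, 2704 and 2538 CPM with overexpression and 3124, 3085 and 3626 CPM in controls, passed with all libraries (log2 change -0.33, adjusted p = 0.00948) and not without overexpressing replicate 3.

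Transcription factors of the squamous state divided. SOX2 fell to 33.3, 35.9 and 37.5 CPM with overexpression, against 49.2, 44.6 and 46.7 CPM in controls (adjusted p = 0.00217), and MAF, a factor of keratinocyte differentiation, to 26.3, 21.1 and 19.8 CPM with overexpression, against 32.6, 40.6 and 34.3 CPM in controls (adjusted p = 0.00265). TP63, the master factor of basal epithelium, had 635, 571 and 525 CPM with overexpression and 464, 555 and 490.5 CPM in controls and did not pass (log2 change 0.20, adjusted p = 0.184). Among the other keratins KRT80 rose by 0.74 and KRT1, scarce in the line, had 0.427, 0.668 and 0.514 CPM with overexpression and 2.01, 2.42 and 1.8 CPM in controls (3.82-fold lower, adjusted p = 0.000326). The simple keratins KRT8 and KRT18 had log2 changes of -0.05 and 0.02 and did not pass. The summed level of 12 epithelial markers, most of it KRT5 and KRT14, was 12382 to 13269 CPM in overexpressing and 14083 to 14737 CPM in control libraries. That of 8 myoepithelial markers, most of it KRT14, was 3144 to 3357 CPM in overexpressing and 3690 to 4215 CPM in control libraries. Both sums therefore largely repeat the keratins. Of 7 tested myoepithelial markers 2 fell, KRT14 and CALD1, and none rose. The groups overlapped for ACTA2, MYH11, CNN1 and TAGLN, all of low level. Whether the mix of cells had a part in the falls of keratins was not tested.

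Genes of the cornified envelope, the outer layer of skin, gave 5 falls and 1 rise among 20 tested (median -0.24), and another 18 listed were too scarce to test. ELOVL4, which lengthens the fatty acids of barrier lipids, fell to 30.05, 32.9 and 34.4 CPM with overexpression, against 48.6, 49.3 and 50.5 CPM in controls (log2 change -0.61, SE 0.073, adjusted p = 3.51e-05). TGM1, the cross-linking transglutaminase, fell to 12, 12 and 10.4 CPM with overexpression, against 15.6, 16.3 and 16 CPM in controls (adjusted p = 0.00492). Of 12 tested desmosomal genes 3 fell and none rose (median -0.21). PKP1, a plaque protein of these junctions, fell by 0.51 on the log2 scale, and PERP, a membrane protein of desmosomes, by 0.31, to 621, 654 and 698 CPM with overexpression, against 838, 808 and 804 CPM in controls (adjusted p = 0.00454).

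Tight junctions, which seal epithelia, moved the other way in part, with 4 of 17 tested genes higher and 1 lower (median 0.06). CLDN1, a sealing claudin, rose to 58.6, 53.6 and 51.7 CPM with overexpression, against 25.5, 27.2 and 28.3 CPM in controls (2.02-fold, log2 change 1.02, SE 0.076, adjusted p = 1.81e-07). CLDN7 rose by 0.42 and TJP3, a scaffold protein, by 1.09 at a low level. Channels and transporters of fluid gave 8 rises and 3 falls among 30. SCNN1A, the α-subunit of the epithelial sodium channel of ducts, rose to 37.4, 39.2 and 37.6 CPM with overexpression, against 23.7, 24.1 and 21.6 CPM in controls (1.64-fold, adjusted p = 1.02e-05). The gap-junction genes GJB2 and GJB6 rose by 0.51 and 0.54, while GJA1, connexin 43, fell to 111, 124 and 116 CPM with overexpression, against 198, 182 and 192 CPM in controls (1.63-fold lower, adjusted p = 1.74e-06). CA2, a carbonic anhydrase, fell to 276, 261 and 277 CPM with overexpression, against 426, 406 and 461 CPM in controls (1.59-fold lower, adjusted p = 3.26e-06).

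**Figure D4:**
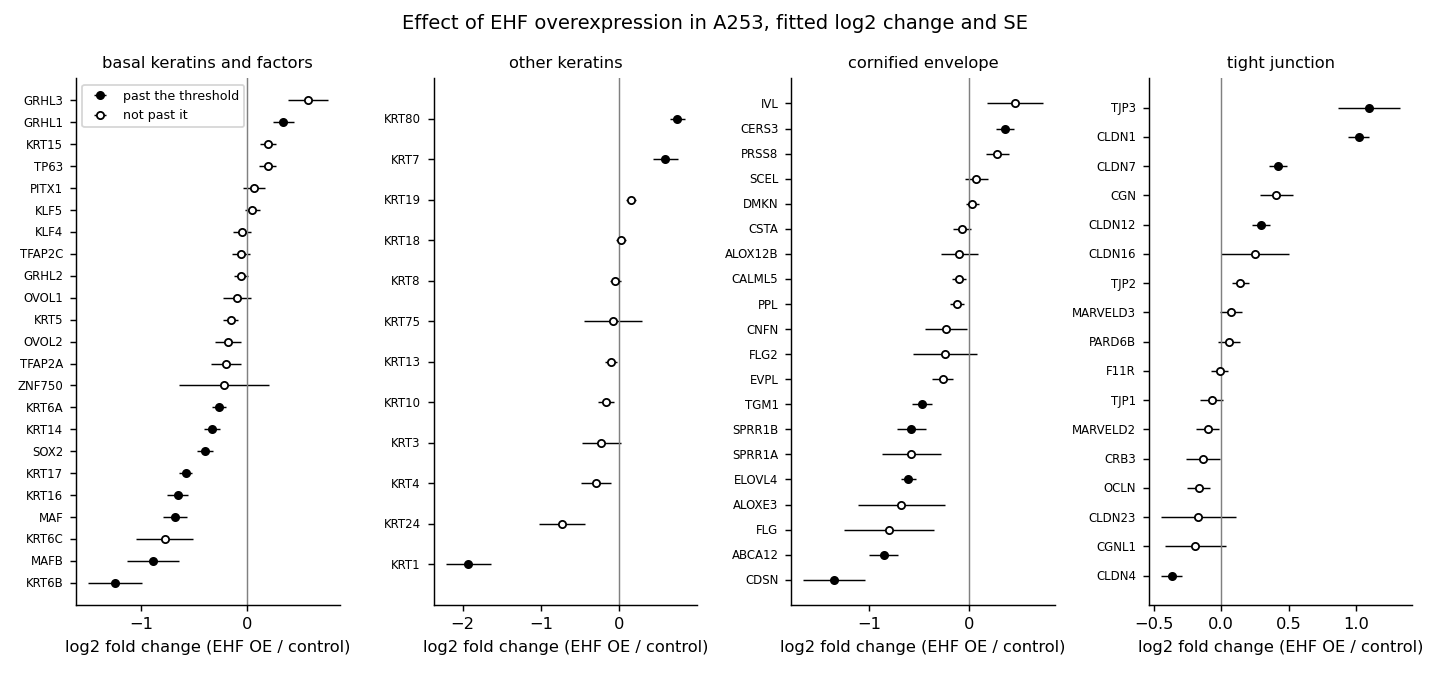
Fitted log2 change (EHF overexpression over control, bars show the SE) of each tested basal keratin and squamous factor, other keratin, cornified envelope gene and tight junction gene; filled points passed the threshold and open points did not. Filled points lie mostly left of 0 for basal keratins and the cornified envelope, and mostly right of 0 for the tight junction.

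Mesenchymal, contractile and matrix genes gave 6 falls and no rise among 29 tested (median -0.16), and 2 falls without control replicate 1. FBN1, of the microfibrils that MFAP5 also belongs to, fell to 3.85, 3.84 and 4.11 CPM with overexpression, against 6.04, 6.64 and 6.67 CPM in controls (adjusted p = 0.00316), though not by limma on TPM, and CALD1, an actin-binding protein of contractile cells, to 46.5, 52.2 and 49.96 CPM with overexpression, against 67.9, 65.9 and 69.1 CPM in controls (adjusted p = 0.000427). The mesenchymal markers VIM and FN1 did not pass (log2 changes 0.13 and -0.37), and 11 of the 40 listed genes were too scarce to test, the fibroblast marker DCN among them. TGF-β pathway genes gave 6 falls and 2 rises among 30, with 2 falls without overexpressing replicate 3 and 2 without control replicate 1. BMP4, a ligand of the family, fell to 21.5, 24 and 22.2 CPM with overexpression, against 35.3, 33.1 and 34.7 CPM in controls (1.52-fold lower, adjusted p = 8.19e-05), while PMEPA1, a feedback inhibitor, rose by 0.61.

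Genes better known from neurons were among the falls. Of 41 tested tubulins and cytoskeletal genes 6 fell and 1 rose (median -0.16), with 3 falls without control replicate 1 and 10 without control replicate 2. NEFL, the light neurofilament, fell to 90.8, 92.1 and 89.4 CPM with overexpression, against 149, 146 and 155 CPM in controls (1.65-fold lower, log2 change -0.72, SE 0.06, adjusted p = 5.82e-07). Of 18 tested neural adhesion genes and protocadherins 4 rose and 5 fell, with 2 or 3 falls without overexpressing replicate 2 or 3 or control replicate 1 or 2. CNTN1, a neural adhesion protein, fell to 340.4, 394 and 364 CPM with overexpression, against 478, 484 and 498 CPM in controls (adjusted p = 0.000578), and PCDH1 rose 1.69-fold to 81.4, 72.9 and 74.4 CPM with overexpression, against 43.8, 48.7 and 42.7 CPM in controls (adjusted p = 3.93e-06). Among 32 tested guidance genes 3 rose and 6 fell, with 3 falls without control replicate 1. SEMA3C, a secreted semaphorin, fell to 41.2, 45.7 and 47.5 CPM with overexpression, against 74.1, 72.4 and 71.7 CPM in controls (1.62-fold lower, adjusted p = 5.81e-06), and NTN4, a netrin of basement membranes, rose 1.61-fold.

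Genes of growth factors and their receptors changed in both directions. IGFBP3, which binds insulin-like growth factors, gained more transcript than any other called gene, at 1554 ± 43.0 TPM with overexpression and 479 ± 10.6 TPM in controls (SD, n = 3 each; log2 change 1.72, SE 0.065, adjusted p = 2.1e-11). FGF19, a hormone-like fibroblast growth factor, had 5.06, 4.45 and 4.04 CPM with overexpression and 1.32, 0.900 and 0.722 CPM in controls (4.43-fold, adjusted p = 7.6e-06), and FGFR3 rose by 0.63. WNT4 had 4.77, 4.84 and 4.63 CPM with overexpression and 1.78, 2.36 and 2.07 CPM in controls (2.29-fold, adjusted p = 0.000267). Of 30 tested growth factors and receptors outside the ERBB family 5 rose and 2 fell. Among 19 tested ETS factors 2 rose, EHF and the interferon-inducible ETV7, and 1 fell; ETV7 did not pass without overexpressing replicate 2 or 3 or control replicate 2. ELF3, of the same epithelium-specific branch as EHF, had 43.9, 39.6 and 41.7 CPM with overexpression and 42.3, 43.3 and 49.8 CPM in controls and did not pass (adjusted p = 0.522). SDPR, a coat protein of caveolae, was among the tightest changes, at 27.1, 28.3 and 28.9 CPM with overexpression and 8.28, 8.27 and 8.21 CPM in controls (3.41-fold, adjusted p = 1.16e-09).

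Aldo-keto reductases, which reduce aldehydes and ketones, and aldehyde dehydrogenases, which oxidise aldehydes, gave 4 rises and 6 falls among 26 tested. None of 10 reductases rose and 5 fell, while 4 of 16 dehydrogenases rose and 1 fell. The aldo-keto reductase AKR1B10 fell to 101, 93.8 and 96.9 CPM with overexpression, against 139.9, 139.9 and 153 CPM in controls (1.48-fold lower, adjusted p = 1.54e-05), and AKR1C2, nearly identical to AKR1C1, fell by 0.76 on the log2 scale. ALDH7A1 and ALDH3A2 rose by 0.41 and 0.33. ALDH3B2 had a log2 change of -0.86 (adjusted p = 0.0298) and did not pass without overexpressing replicate 1 or 3 or control replicate 1 or 2. The list of 40 NRF2, glutathione and NADPH genes, which shares AKR1B10, AKR1C1 and AKR1C2 with the reductases, gave 1 rise and 5 falls. NQO1, a quinone reductase of that list, had a log2 change of 0.02 (adjusted p = 0.905) and did not pass. Without overexpressing replicate 2 or 3, or control replicate 1 or 3, that list gave 3 falls. ABCG2, a drug efflux pump, fell to 5.98, 5.23 and 6.98 CPM with overexpression, against 10.9, 9.28 and 9.83 CPM in controls (1.66-fold lower, adjusted p = 0.00166), 1 of 4 falls among 16 such transporters. The glycolytic enzyme PKM rose (0.87), but of 38 tested genes of glycolysis and lactate 4 rose and 3 fell, and the rises numbered 1 or 2 without overexpressing replicate 1 or 3 or control replicate 1 or 2. EGLN3, an oxygen sensor, rose to 58.1, 55 and 56.1 CPM with overexpression, against 31.5, 29.5 and 31.7 CPM in controls (1.83-fold, adjusted p = 3.9e-07).

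Proliferation and housekeeping programmes showed few calls. Among 50 S-phase genes 1 rose and 1 fell, and among 58 mitosis genes 1 rose, with medians of -0.02 and -0.01. The list of D cyclins and CDK inhibitors gave 2 rises and 1 fall among 17 tested genes (median -0.05). Its summed level overlapped between the groups, at 2017 to 2101 CPM with overexpression and 2072 to 2244 CPM in controls. CCND2 rose to 57.6, 58.1 and 50.3 CPM with overexpression, against 35.7, 39.6 and 34.5 CPM in controls (adjusted p = 0.000112), and CCND3 rose to 20.4, 22.9 and 24.5 CPM with overexpression, against 15, 14.5 and 16.2 CPM in controls (adjusted p = 0.000752). MYC rose by 0.51 (adjusted p = 0.00022). None of 72 cytosolic ribosome genes, 41 replication-dependent histone genes or 21 Notch pathway genes was called by edgeR or by DESeq2, and 0, 3 and 6 of them had an unadjusted p under 0.05 in edgeR. Those unadjusted counts are not set beside the share over all genes, so they do not say whether a list stands out. Of 84 tested nuclear genes of the mitochondrial ribosome and stress response 2 rose and none fell (median 0.03), and of 77 nuclear respiratory chain genes 3 rose and none fell (median 0.10). A log2 change above 0 was found for 68 of these 77, for 54 of the 84 and for 60 of the 72 cytosolic ribosome genes. The median of all genes tested was -0.0034. The summed level of the respiratory chain list overlapped between the groups, at 10562 to 11910 CPM with overexpression and 9834 to 11156 CPM in controls.

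The other line of the series in which EHF was raised is SCC25, from a squamous carcinoma of the tongue, with 2 overexpressing libraries grown with doxycycline and 2 controls. The fold rise of EHF was larger in A253, with a difference of effects of 2.05 on the log2 scale (SE 0.11, adjusted p = 5.56e-10 for the interaction term). In SCC25 EHF rose by 0.99 on the log2 scale, to 860 and 892 CPM with overexpression, against 461 and 420 CPM in controls. A253 had 765, 711 and 633 CPM with overexpression and 84.5, 91.4 and 83.2 CPM in controls. The larger fold in A253 thus started from a lower control level and did not reach a higher one. In SCC25 3370 of 14120 genes (23.9%) were called. Of 1068 genes called in A253 and tested in both lines, 507 were called in SCC25 as well, which is 47.5% of the A253 calls and 15.8% of the 3215 SCC25 calls. Of these, 445 moved in the same direction and 62 in opposite directions. The effect itself differed between the lines for 871 of 15460 genes (5.63%), with 556, 318, 326 and 429 when SCC25 control replicate 1, control replicate 2, overexpressing replicate 1 and overexpressing replicate 2 were left out. Among genes called in A253 it differed for 314, of which 204 had risen and 110 had fallen in A253. Of the 204, 182 rose more in A253 than in SCC25, and of the 110, 108 fell more in A253. Selection by the A253 result favours that direction, so the split is a description.

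Programmes were not shared equally. The effect differed between the lines for 13 of 58 tested interferon response genes and 5 of 26 of antigen presentation, against 5.63% of all genes. Of these lists 30 and 15 genes rose in A253, against 38 and 18 in SCC25, where none fell. The effect also differed for 24 of 41 histone genes, 16 of 50 S-phase genes and 15 of 84 genes of the mitochondrial ribosome list. Of these lists 1 S-phase gene fell in A253, against 39 histone, 38 S-phase and 39 mitochondrial ribosome genes in SCC25. Over all genes tested, calls were also more frequent in SCC25, at 23.9% against 7.97% in A253. The counts of calls per list are therefore not comparable between the lines on equal terms. TRIM22 rose more in A253 (1.65) than in SCC25 (0.87; difference 0.80, adjusted p = 0.0353). ALOX5 rose by 4.72 in A253 and 5.01 in SCC25, and the difference of -0.29 was smaller than its SE of 0.66 (adjusted p = 0.898). MMP13 rose less in A253, by 2.03 against 3.96 in SCC25 (difference -1.91, SE 0.11, adjusted p = 9.93e-10), as did B4GALNT2 (2.02 against 3.88) and CLU (0.73 against 2.83; adjusted p = 4.91e-07). SLPI, HDAC9, CD55 and CASP1 rose more in A253, with differences of 1.73, 1.39, 0.98 and 0.92. Keratins diverged: KRT17 fell by 0.58 in A253, against a rise of 0.57 in SCC25 (difference -1.13, SE 0.091, adjusted p = 2.02e-07), and TGM1, MAF, CALD1 and SEMA3C were lower in A253 and higher in SCC25, with differences of -0.88, -1.06, -0.80 and -0.84. The plot of both cell lines shows EHF and the largest rises and falls.

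**Figure D5:**
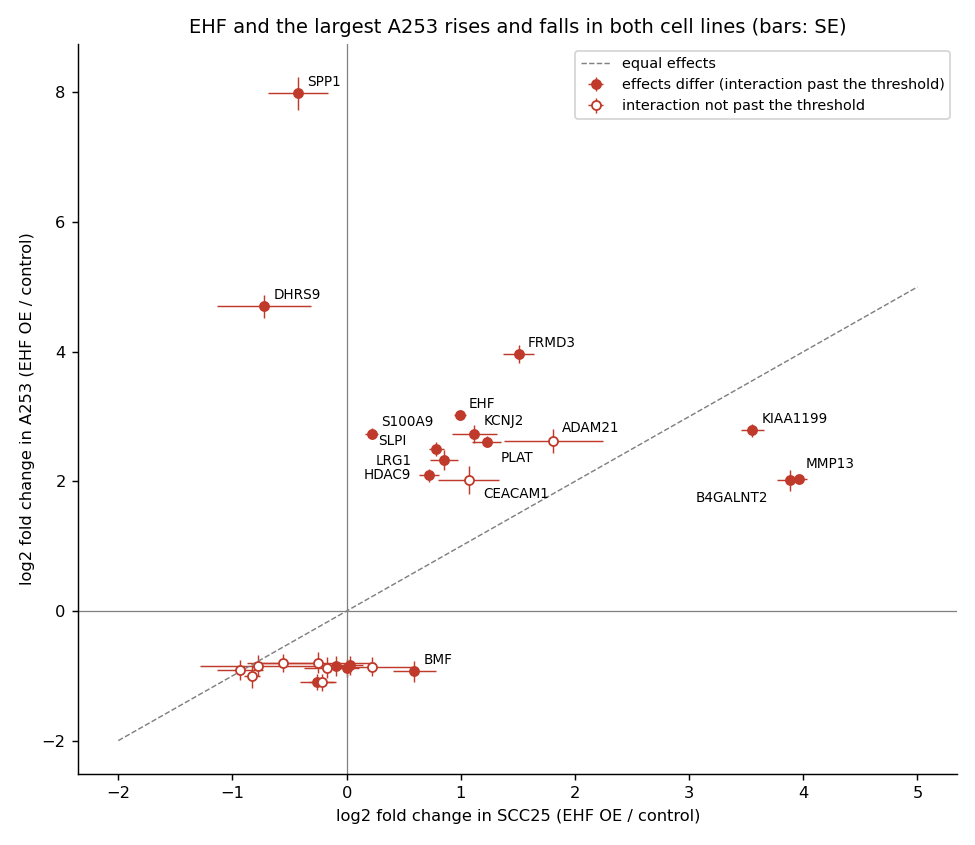
Fitted log2 change in A253 (vertical) against SCC25 (horizontal) for EHF and the largest A253 rises and falls tested in both lines, with SE as bars; filled points have effects that differ by the interaction term and the dashed line marks equal effects. SPP1 and DHRS9 lie far above the line with SCC25 values below 0, KIAA1199, MMP13 and B4GALNT2 lie below it, and the falls cluster below 0 in A253.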

How the data were processed

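RNA was extracted with Trizol and a column kit, enriched for mRNA and made into TruSeq libraries, per the labels' protocols. The deposited tables hold raw counts per gene symbol and TPM per gene, both made by the authors. The submitters' processing notes name TopHat2 2.1.1, Bowtie 1.1.1, featureCounts 1.5.3 and DESeq2 1.12.4 and the build hg19, without saying which step used which. Whether counting used strand is not given in the sources used here, so a gene and an overlapping gene on the other strand may share reads, as may near-identical copies. Positions and promoter sequences are those of RefSeq on GRCh38.p14, matched by symbol, and no hg19 coordinate is used. Of the 23710 gene names, 28 had turned into dates and 2 of these occurred more than once.

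Counts were analysed in R 4.3.3 with edgeR 4.0.16: filterByExpr, TMM scaling, a robust quasi-likelihood fit over the 6 libraries and a two-sided test, adjusted by Benjamini-Hochberg over all 14503 genes tested with a threshold of 0.05. CPM are relative to the TMM-scaled totals. The SE of a log2 change is its size divided by the square root of the F statistic. The effect in A253 was compared with that in SCC25 by testing the interaction of line and overexpression over 10 libraries, each line against its own controls. Ratios for scarce genes have exact intervals at a confidence level of 0.95. The script was checked on simulated counts.

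Genes named are EHF, the 15 genes that rose most and the 15 that fell most among called genes whose mean log2 CPM reached 2 and whose groups did not overlap, 8 genes scarce in controls, and list members past the threshold, 328 in all. The gene set and the lists were chosen with earlier results of these data known, and they are described by counts and medians with no test of the list. Alternatives were other size factors, DESeq2 1.42.0, other filters, limma 3.58.1 on log2 of the deposited TPM plus 1 or 0.1, a replicate block, a minimum fold change of 1.2 and each library left out. No 2 libraries were alike within sampling noise: the chi-square per degree of freedom was 2.89 to 9.72 between replicates. Library totals of 11090976 to 17823293 counts make genes under about 1 CPM imprecise. Some list members are counted with their lists and are not reported here by name.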

Additional observations from a re-analysis of the deposited data

Results flagged for a closer look

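The values here are differences of effects, the log2 change with overexpression in A253 minus that in SCC25, and each passed an adjusted p of 0.05 for the interaction term of edgeR in the joint fit of 10 libraries. For genes with the largest changes in A253 the effect was more positive in A253 for EHF (2.05), SPP1 (8.41), DHRS9 (5.43), FRMD3 (2.47), S100A9 (2.53), KCNJ2 (1.62), PLAT (1.40), SLPI (1.73), LRG1 (1.49) and HDAC9 (1.39). It was less positive for KIAA1199 (-0.75), MMP13 (-1.91) and B4GALNT2 (-1.85). Among the largest falls it was more negative in A253 for TUBA1A (-0.83), BMF (-1.51), HCAR2 (-0.87), LYPD3 (-0.73) and DLC1 (-0.85).

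Other list members passed the threshold in both lines in opposite directions. The following rose in A253 and fell in SCC25, with these differences: COX7B (0.44), CXCL1 (0.61), FAS (0.65), FDFT1 (0.49), GLA (0.55), MT1X (0.77), PGK1 (0.48), SH2B3 (0.65) and XDH (0.88). They include the glycolytic enzyme PGK1, the chemokine CXCL1, the metallothionein MT1X and the death receptor FAS. The reverse, a fall in A253 and a rise in SCC25, held for ABCC5 (-0.54), BMP2 (-0.83), CALD1 (-0.80), CD24 (-0.55), CDH13 (-0.51), DSC3 (-0.52), DST (-0.80), ETS2 (-0.48), KRT1 (-2.96), KRT16 (-0.80), KRT17 (-1.13), MAF (-1.06), PERP (-0.50), PTGES (-0.57), SEL1L (-0.52), SEMA3C (-0.84), TGM1 (-0.88) and TIMP2 (-1.0). Keratins, the desmosomal genes DSC3 and PERP and the cytolinker DST are among these. Of 28 genes that moved in opposite directions, BMF included, 15 kept the A253 call with each A253 library left out and 13 lost it without control replicate 1. CXCL1, FAS, FDFT1, GLA and CDH13 lost it in 5 of 6 such fits, COX7B, PGK1, SH2B3, BMP2, ETS2 and SEL1L in 4, DSC3 in 3 and MT1X in 2, with adjusted p up to 0.263 in edgeR. Limma on TPM without a filter did not call ABCC5, BMF, DST, MAF, TGM1, TIMP2 and XDH, nor these 13 except FDFT1 and MT1X. With 2 libraries per group in SCC25, its part of each difference rests on few values.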

How the results depend on the processing

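The rise of EHF was 2.96 to 3.09 on the log2 scale under every alternative run. The count of called genes was 658 to 1036 with 1 library left out, 767 by limma on TPM with a pseudocount of 0.1, 490 on TPM with a pseudocount of 1 and no filter, 793 by DESeq2 and 392 when tested against a minimum fold change of 1.2, which by its construction calls fewer. Called genes that changed at least 2-fold numbered 157, and 145 to 172 with 1 library left out, but 67 on TPM with a pseudocount of 1 and 71 without a filter, where the pseudocount shrinks folds of low genes. The lists held 308 called genes, 200 to 290 with 1 library left out, 160 on TPM without a filter and 135 against the minimum fold change. On TPM with a pseudocount of 1 the falls among drug efflux transporters numbered 1, against 4. Of 8 genes scarce in controls, 5 passed a filter of CPM above 1 in at least 3 libraries. The interaction gave 871 genes, 521 by DESeq2 and 318 to 936 with 1 library left out; values near the low end came from leaving out SCC25 libraries, which leaves 1 in a group, assumed to vary like the others. The labels do not say whether replicate numbers pair the libraries. Deviations of same-numbered libraries correlated at -0.19, 0.011 and 0.18, and only the libraries numbered 3 correlated above 0.1 with their own number. Those of control replicate 2 and overexpressing replicate 1, which the second component set apart, correlated at 0.32. That axis could hide a pairing, so these values do not decide it. A replicate block gave 1073 called genes. For 124 of 328 named genes the call held under every alternative that tested the gene. The same was so for 33 of the 38 that are EHF, the largest rises and falls and the scarce genes. A gene that the filter of an alternative left out was not counted as lost there. No log2 change of a named gene turned its sign. Where calls were lost, the cause was not tested, apart from those given. A block over replicate numbers gave 976 genes in the interaction. Depth limits genes under about 1 CPM.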
